A study of Mus musculus with 16 samples.

Results

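Semaphorin 7A (Sema7a), 6 other semaphorin genes (Sema3a, Sema3c, Sema3f, Sema4d, Sema5a and Sema6a) and 3 receptor genes (Plxnc1, Nrp1 and Nrp2) were followed in staggerer mice, in somatosensory cortex and in the thalamic ventrobasal nucleus (VB). Their probes were those whose gene symbol on the array platform was one of these 10 names, which gave 13 of the 24107 probes on the array and 10 of its 18501 gene symbols. Sema7a, Sema3c and Nrp2 had 2 probes each and the others 1. A further Nrp2 probe, listed under the older symbol Npn2, was counted in the Nrp2 gene value as well. Sema7a was chosen by its measured ratio in cortex, so that ratio is described below with no test.

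Each of the 16 arrays compared 2 RNA samples, one from mice labelled "Stagerrer mutant" and one from mice labelled control, both of strain C57BL/6, at postnatal days 5 to 6. Staggerer is an inherited loss-of-function deletion in Rora, which encodes RORα, a nuclear receptor, and so affects every cell type and not the dissected tissue alone. The labels number 4 litters in each tissue, and each litter was hybridized on 2 arrays with the dyes exchanged, so that staggerer RNA carried Cy5 on one array and Cy3 on the other. The number of animals behind a litter sample and the Rora genotype of the controls are not stated by the labels. Cortex RNA was labelled through aminoallyl nucleotides, while that of VB was first amplified by PCR with template switching, so tissue and labelling method cannot be told apart.

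Semaphorins are secreted or membrane-bound proteins that steer growing axons, and most act through plexins. The secreted class 3 semaphorins bind neuropilins, which form complexes with A-type plexins. Sema7a is anchored to the membrane by a lipid, binds plexin C1 and β1 integrins, and is known to promote the growth of sensory axons. In the whisker pathway, axons from the VB enter layer 4 of the somatosensory cortex and arrange themselves into whisker-related clusters during the first postnatal week.

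The values are normalized log ratios as deposited, taken here as log2, with no channel intensities, so neither a level nor the presence of tissue markers could be checked and no filter on dim probes was made. The arrays held 17711 to 22207 values in VB and 19633 to 22580 in cortex. The labels do not say which RNA is the numerator, nor whether the ratio follows the genotype or the dye. The text therefore speaks of positive and negative ratios, without saying in which genotype a gene was higher. Arrays of the same dye assignment had a Spearman rho across probes of 0.320 to 0.447 in VB and 0.0575 to 0.236 in cortex. Between opposite dye assignments rho ran from -0.414 to -0.233 in VB, and from -0.104 to 0.0108 in cortex. In VB the deposited value of a typical probe thus changed sign with the dye assignment. A dye effect gives such a change, and so does a genotype difference if the columns are Cy5 over Cy3. Which of them holds was not tested. Ratios were averaged over the swapped arrays of a litter as if they followed the genotype, and values read as Cy5 over Cy3 are given further on. In bulk tissue, fewer cells of a type and less RNA per cell cannot be told apart.

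In cortex the Sema7a ratio, averaged over the swapped arrays, lay far below 0 in every litter. The litter values of the gene were -0.95, -0.66, -0.71 and -1.05 for litters 1 to 4, a mean of -0.84 ± 0.19 (SD, n = 4 litters) on the log2 scale. That is a ratio of 0.557, which would be a 1.79-fold difference between the genotypes if the columns follow the genotype, and it stood at place 17 from the lowest of 16521 features. Both Sema7a probes showed it in litters 1, 2 and 4, while the value of litter 3 rests on probe 181 alone. Probe 181 read -0.956, -0.660, 0.150 and -1.021 on the arrays of litters 1 to 4 with staggerer RNA in Cy3, and -0.912, -0.310, -1.575 and -1.013 on those with staggerer RNA in Cy5. Probe 8126 read -1.272, -1.230 and -1.180 for litters 1, 2 and 4 in the first assignment, with no value in litter 3. In the second assignment it read -0.667, -0.429, -0.993 and -1.0. Of these 15 values 14 were negative, and the single positive one came from litter 3, whose swapped array held the lowest value of the same probe. The litter 3 value is thus the mean of 0.150 and -1.575, which lie on both sides of 0.

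The Sema7a probes gave similar means in cortex, -0.79 ± 0.24 (n = 4 litters) for probe 181 and -0.96 ± 0.13 (n = 3) for probe 8126. On the 7 arrays where both had a value their signs were the same, and probe 181 differed from probe 8126 by 0.046 ± 0.38 (SD). Within an array, 0.150% to 65.1% of all probes had a lower value than probe 181, and 0.336% to 8.68% a lower value than probe 8126. The gene mean was -0.86 with staggerer RNA in Cy5 and -0.75 with it in Cy3, so exchanging the dyes left the sign of the deposited value as it was.

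In VB the Sema7a ratio was near 0. Probe 181 read -0.451, 0.112, -0.265 and -0.228 with staggerer RNA in Cy3, and 0.227, 0.164 and 0.023 for litters 1, 3 and 4 with it in Cy5. Probe 8126 read -0.107, -0.252 and 0.019 for litters 1 to 3 in the former and 0.015, 0.126, -0.219 and -0.025 for litters 1 to 4 in the latter. Positive and negative values were mixed within each assignment except for probe 181 in Cy5, and the probes shared a sign on 2 of 6 arrays. The gene value of litter 2 rests on probe 8126 alone and that of litter 4 on probe 181 alone, since the other probe lacked a swapped array there. The litter values were -0.079, -0.063, -0.075 and -0.10, with a mean of -0.080 ± 0.017 (n = 4). By limma this did not differ from 0 (adjusted p = 0.708, 95% interval -0.22 to 0.058). The dye means had opposite signs, 0.055 in Cy5 and -0.18 in Cy3, and the small spread between litters is that of averages of such values. VB exceeded cortex by 0.76 for Sema7a, a description that rests on the ratio used to choose the gene.

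**Figure D1:**
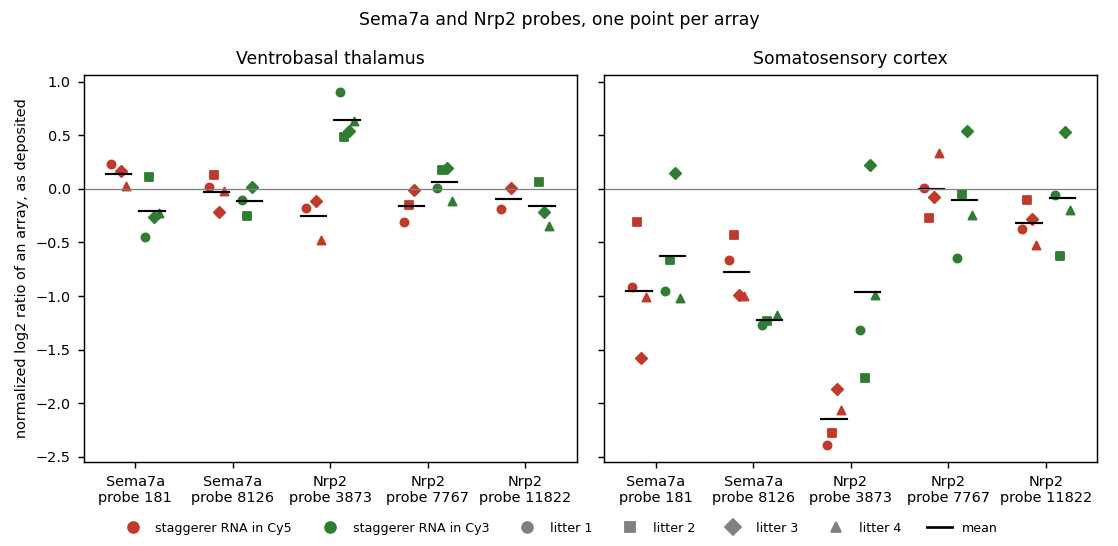
Normalized log2 ratio of each Sema7a and Nrp2 probe on every array with a value, in VB (left) and cortex (right). Red points carry staggerer RNA in Cy5 and green points in Cy3, shapes mark litters and bars are means over arrays. Both Sema7a probes lie below 0 in cortex except on 1 array, and of the Nrp2 probes, probe 3873 lies lowest in cortex, at -2.386 to 0.221.

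The class 3 semaphorins are secreted ligands. All 3 were tested in VB and Sema3f alone in cortex, and 0 passed by limma. Sema3a, which repels many cortical axons, read 0.335, -0.031, 0.202 and 0.302 in VB with staggerer RNA in Cy3. With it in Cy5 the values were -0.314, -0.428 and -0.024 for litters 1 to 3. The assignments barely overlapped, and the litter mean was -0.043 ± 0.17 (n = 3; limma adjusted p = 0.910). In cortex Sema3a read 0.742, 0.235 and -0.137 for litters 1, 3 and 4 in Cy3 and 0.729, 0.314 and 0.512 for litters 1 to 3 in Cy5. Of these values 5 of 6 were positive, but only 2 litters had both arrays, too few for the test.

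Sema3c, another secreted ligand that can act as an axon attractant, was negative in all 4 VB litters, at -0.12, -0.25, -0.033 and -0.20. The mean was -0.15 ± 0.096 (n = 4; limma adjusted p = 0.488, 95% interval -0.30 to -0.0013). Its probes had means of -0.17 ± 0.19 (n = 3) and -0.11 ± 0.11 (n = 4) there, and shared a sign on 5 of 7 arrays. In cortex the single arrays ran from -0.342 to 0.495 for one probe and from -0.210 to 0.896 for the other, and too few litters had both arrays.

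Sema3f, a repellent ligand that signals through neuropilin-2, had the widest gap between dye assignments in cortex of the 10 gene means. It read 0.434, 0.746 and 1.101 for litters 1, 3 and 4 with staggerer RNA in Cy3, and -0.436, 0.019, -0.725 and -0.656 for litters 1 to 4 with it in Cy5. The assignments did not overlap, and their means were 0.76 and -0.45. Averaged within litters, these values gave 0.077 ± 0.13 (n = 3; limma adjusted p = 0.941). In VB the pattern was similar but smaller, 0.232, 0.394, 0.100 and 0.603 in Cy3 and -0.024, -0.003 and -0.252 for litters 1 to 3 in Cy5, with a litter mean of 0.075 ± 0.14 (n = 3; limma adjusted p = 0.813). Sema7a, Sema3f and the mutated gene Rora all lie on mouse chromosome 9.

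Of the transmembrane semaphorins, Sema4d, a ligand of plexin B1, had a VB mean of 0.16 ± 0.21 (n = 3; limma adjusted p = 0.622). Its VB arrays read -0.203, -0.335, -0.268 and 0.191 in Cy3 and 0.536, 0.155 and 0.520 for litters 1, 3 and 4 in Cy5. In cortex it ran from -1.523 to 0.755, the lowest value lying on the Cy3 array of litter 4, and the mean was -0.052 ± 0.39 (n = 4; limma adjusted p = 0.972). Litter values of Sema4d in cortex were thus spread on both sides of 0.

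Sema5a, which carries thrombospondin repeats beside its semaphorin domain, was positive in all 3 cortex litters with both arrays, at 0.13, 0.28 and 0.27. The mean was 0.23 ± 0.083 (n = 3; limma adjusted p = 0.706, 95% interval -0.041 to 0.50). The single cortex arrays ran from -0.172 to 0.740, so its litters lay closer together than its arrays. In VB, Sema5a averaged 0.038 ± 0.16 (n = 3; limma adjusted p = 0.924).

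Sema6a, a transmembrane ligand of A-type plexins, read -0.298, -1.017, -0.794 and -0.254 in VB with staggerer RNA in Cy3, and 0.021 and 0.324 for litters 3 and 4 with it in Cy5. The assignments did not overlap, and too few litters had both arrays for a test. In cortex its litter values of 0.22, -0.28, -0.040 and 0.014 averaged -0.021 ± 0.20 (n = 4; limma adjusted p = 0.994).

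Among the receptors, Nrp2, which encodes neuropilin-2 and binds class 3 semaphorins such as Sema3f, was negative in all 4 cortex litters. Its litter values were -0.80, -0.85, -0.16 and -0.61, with a mean of -0.60 ± 0.31 (n = 4) and a ratio of 0.658. At place 64 from the lowest of 16521 features it did not pass the test (limma adjusted p = 0.157, 95% interval -0.88 to -0.33). Litter 3 lay closest to 0. In VB its litters read 0.10, 0.010, 0.067 and 0.077, all positive and all above the cortex litters, with a mean of 0.065 ± 0.039 (n = 4; limma adjusted p = 0.772). A probe entered a litter value only with both swapped arrays, so these litters rest on different probes. Litter 1 used probes 3873 and 7767, litter 2 probe 7767 alone, litter 3 every probe and litter 4 probe 3873 alone. Over its own VB litters probe 3873 averaged 0.22 and probe 7767 -0.0175 (n = 3 each). As for Sema7a, the VB dye means of Nrp2 over all arrays had opposite signs, -0.22 in Cy5 and 0.23 in Cy3. With arrays kept apart, unpaired ones included, the VB mean was 0.0037.

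The 3 Nrp2 probes did not behave alike in cortex. Probe 3873 read -1.314, -1.767, 0.221 and -0.986 with staggerer RNA in Cy3 and -2.386, -2.278, -1.864 and -2.066 with it in Cy5. Probe 11822 read -0.059, -0.623, 0.528 and -0.195 in the former and -0.376, -0.101, -0.278 and -0.521 in the latter. Probe 7767, the one listed under the older symbol, ran from -0.644 to 0.535. Only the first of them lay far below 0, and on the 8 arrays it stood 1.35 ± 0.62 below probe 11822 and 1.50 ± 0.82 below probe 7767 (mean ± SD).

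Fitted as a feature of its own, Nrp2 probe 3873 had a cortex mean of -1.56 ± 0.53 (n = 4), a ratio of 0.340, with a limma adjusted p of 0.00209 (95% interval -1.91 to -1.20). In that fit of single probes, 0.0919% of the features passed in cortex. Without litter 1 the adjusted p was 0.0746 and without litter 2 it was 0.0572, by limma, at means of -1.46 and -1.40. On the arrays with staggerer RNA in Cy3 alone the mean was -0.96 (limma adjusted p = 0.0884). Probes 11822 and 7767 averaged -0.20 ± 0.23 and -0.051 ± 0.24 in cortex (n = 4 each; limma adjusted p = 0.729 and 0.964). With only the probes that the platform lists as Nrp2, a setting added after the data were seen, the gene averaged -0.88 and passed (limma adjusted p = 0.0268), so the call on Nrp2 depends on which probes are averaged. Where each probe lies in the transcripts of Nrp2 was not analysed here.

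Nrp1, encoding neuropilin-1, the receptor of Sema3a, read -0.246, -0.211, 0.624 and 1.180 in cortex in Cy3 and -0.160, 0.349 and -0.232 for litters 1, 3 and 4 in Cy5. The 2 highest values came from litters 3 and 4, and the litter mean was 0.25 ± 0.39 (n = 3; limma adjusted p = 0.752). In VB Nrp1 averaged 0.046 ± 0.19 (n = 4; limma adjusted p = 0.890).

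Plxnc1, encoding plexin C1, the plexin that binds Sema7a, read -0.037, -0.363, 0.725 and 0.155 in cortex in Cy3 and -0.167, -0.019, 0.756 and 0.068 in Cy5. Litter 3 was high on both of its arrays, and the mean was 0.14 ± 0.42 (n = 4; limma adjusted p = 0.878). In VB its 6 values lay between -0.295 and 0.207, with too few complete litters for a test. Litter 3 was thus the litter with the highest Plxnc1 value in cortex and the litter with the highest Nrp2 value there.

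**Figure D2:**
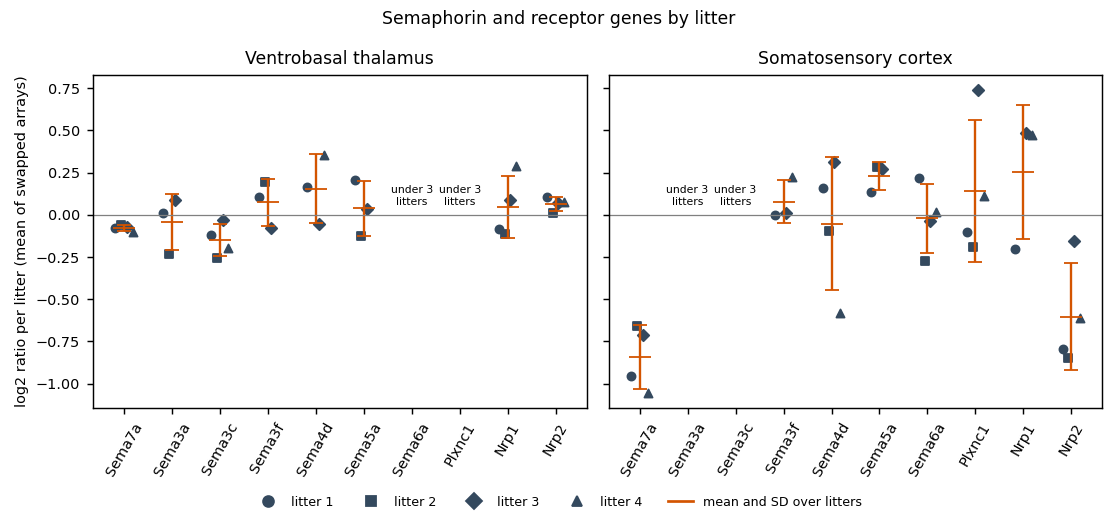
Mean log2 ratio of the swapped arrays of each litter for the 10 genes, in VB (left) and cortex (right). Points are litters, orange bars show the mean and SD over litters, and genes with values in fewer than 3 litters have no bar. Sema7a and Nrp2 lie below 0 in all 4 cortex litters and close to 0 in VB.

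Counted together, 8 of the 10 genes had values in at least 3 litters in each tissue. In VB 0 of 8 passed at an adjusted p under 0.05 by limma, where 0.311% of all features passed. Before adjustment, 1 of the 8, Sema3c, had p under 0.05, against 10.2% of all features. In cortex 0 of the 7 tested passed, against 0.0605% of all features, and 1, Nrp2, had an unadjusted p under 0.05, against 7.9%. The Nrp2 value counted here includes the probe listed as Npn2. Without that probe, a setting added after the data were seen, Nrp2 passed in cortex (limma adjusted p = 0.0268). The same sign in every litter was seen for 3 of 8 genes in VB (Sema7a, Sema3c and Nrp2), where 24.4% of all features showed it, and in cortex for 2 of the 7 genes other than Sema7a (Sema5a and Nrp2), where 20.3% did. The VB means were positive for 5 genes and negative for 3, with a median of 0.042 against 0.0057 over all features. The cortex means, that of Sema7a included, were split 4 and 4, with a median of 0.028 against -0.0031.

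Between the tissues 6 genes could be compared. Nrp2 differed by 0.67 (VB minus cortex, 95% interval 0.35 to 0.98), which did not pass (limma adjusted p = 0.153). Of the 5 tested 0 passed by limma, against 0.0985% of all features, and 1, Nrp2, had an unadjusted p under 0.05, against 9.04%. Nrp2 probe 3873 alone, with 3 litters in VB and 4 in cortex, differed by 1.77. This passed (95% interval 1.27 to 2.27, limma adjusted p = 0.00831), where 0.145% of single probes did. Without litter 2, which gave no VB litter value for it, this probe differed by 1.62, with a limma adjusted p of 0.0517. Leaving out any other litter left too few VB litters for a test. The differences of the others were -0.0028 for Sema3f, 0.21 for Sema4d, -0.19 for Sema5a and -0.21 for Nrp1, with limma adjusted p from 0.758 to 0.998. Of these 5 genes the litters of the tissues did not overlap for 1, Nrp2, a separation shown by 8.78% of all features. The VB litters of Nrp2 rest on different probes, as given above.

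The dye assignments were also set side by side. In VB the mean with staggerer RNA in Cy5 and the mean with it in Cy3 had the same sign for 2 of 8 genes, Sema3c and Sema5a, against 32.2% of all features. In cortex this held for 3 of the 7 genes other than Sema7a (Sema5a, Plxnc1 and Nrp2), against 46.5%. Both counts lie near the shares over all features, and their difference between the tissues was not tested. Values of Sema7a and Nrp2 in cortex were negative in both assignments, Nrp2 at -0.82 in Cy5 and -0.38 in Cy3.

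**Figure D3:**
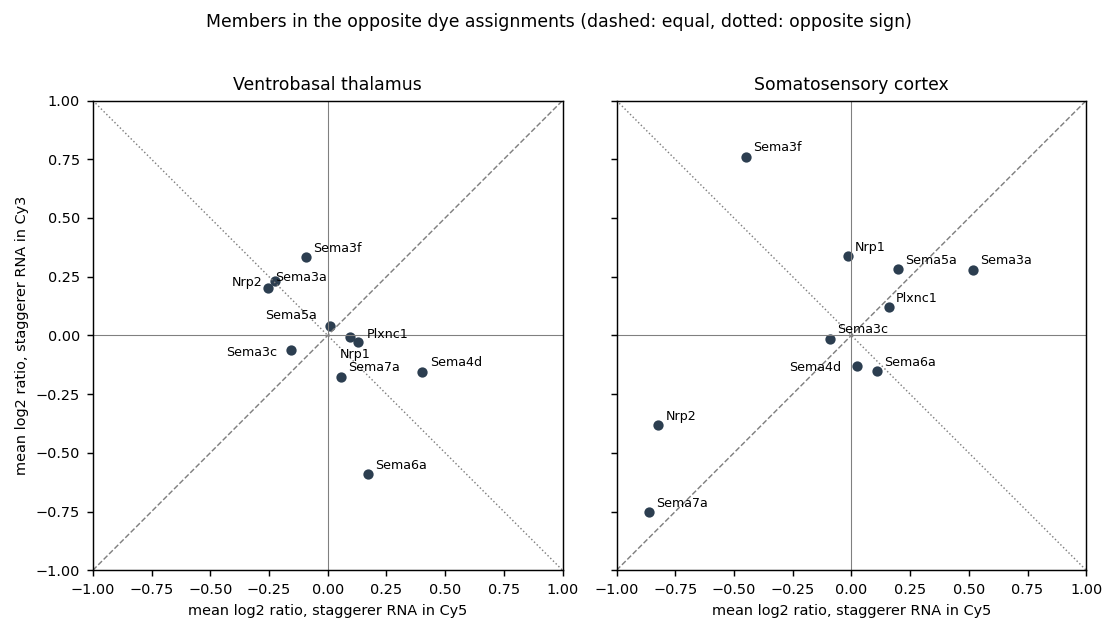
Mean log2 ratio of each gene over the arrays with staggerer RNA in Cy5 (horizontal) and in Cy3 (vertical), in VB (left) and cortex (right). On the dashed line the assignments are equal and on the dotted line they have opposite signs. In cortex Sema7a and Nrp2 lie at the lower left, and Sema3f at the upper left with -0.45 in Cy5 and 0.76 in Cy3.

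Read instead as Cy5 over Cy3, the same columns gave other values. Sema3f in cortex averaged -0.68 ± 0.23 (n = 3) and passed (limma adjusted p = 0.0105), where 1.53% of all features passed. Nrp2 in VB averaged -0.29 ± 0.20 (n = 4) and passed (limma adjusted p = 0.0300), where 17.3% of all features did. The other genes did not pass in this reading, with Sema4d at 0.25 (limma adjusted p = 0.0600) and Sema3a at -0.21 (limma adjusted p = 0.0993) in VB the nearest. The Sema7a ratio in cortex was -0.091 ± 0.52 (n = 4), given with no test, with values on both sides of 0. Nrp2 in cortex averaged -0.22 (limma adjusted p = 0.451) and probe 3873 alone -0.59 (limma adjusted p = 0.0103). In the comparison of tissues 3.74% of all features passed in this reading, and neither Nrp2 nor Sema3f did, at limma adjusted p = 0.836 and 0.0736.

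Rora, the mutated gene, was followed on every array as a check. Its probe read -0.447, -0.687, -0.393 and -0.695 in VB with staggerer RNA in Cy3, and 0.052, 0.180, 0.234 and 0.700 with it in Cy5. The assignments had opposite signs, and the litter mean was -0.13 ± 0.12 (n = 4; limma adjusted p = 0.555). In cortex the values were 0.264, -0.325, -0.756 and -0.466 in Cy3 and -0.578, -0.444 and -0.731 for litters 1, 3 and 4 in Cy5, with a mean of -0.45 ± 0.26 (n = 3; limma adjusted p = 0.358). Read as Cy5 over Cy3, Rora averaged 0.42 in VB and passed (limma adjusted p = 0.00470), where 17.3% of all features did. Its cortex mean in that reading was -0.13 (limma adjusted p = 0.755). Whether the probe lies in the deleted part of Rora was not analysed here, so it settles neither the labels nor the direction of the ratio. Rora and Sema7a were both negative in every cortex litter with a value.

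The genes whose array ratios were most like those of Sema7a were found by the cosine between the ratios over all 16 arrays, among 3817 genes with a value on each. They were Parp4 (cosine 0.851), Ttpal (0.815), Nrp2 (0.797), Neurog2 (0.745) and Yipf2 (0.738). Parp4 encodes a poly(ADP-ribose) polymerase of vault particles, and Neurog2 a proneural transcription factor. Their mean ratios in cortex were -0.19 for Parp4, -0.39 for Ttpal, -0.60 for Nrp2, -0.19 for Neurog2 and -0.54 for Yipf2, all nearer to 0 than Sema7a. Arrays of a litter share RNA, and Sema7a was chosen for its cortex ratio, so these cosines are descriptions. By Pearson's correlation 2 of these 5 genes were among the nearest 5, and by the cosine over the 8 litter values 0 of 5 were, so the order depends on the measure.

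**Figure D4:**
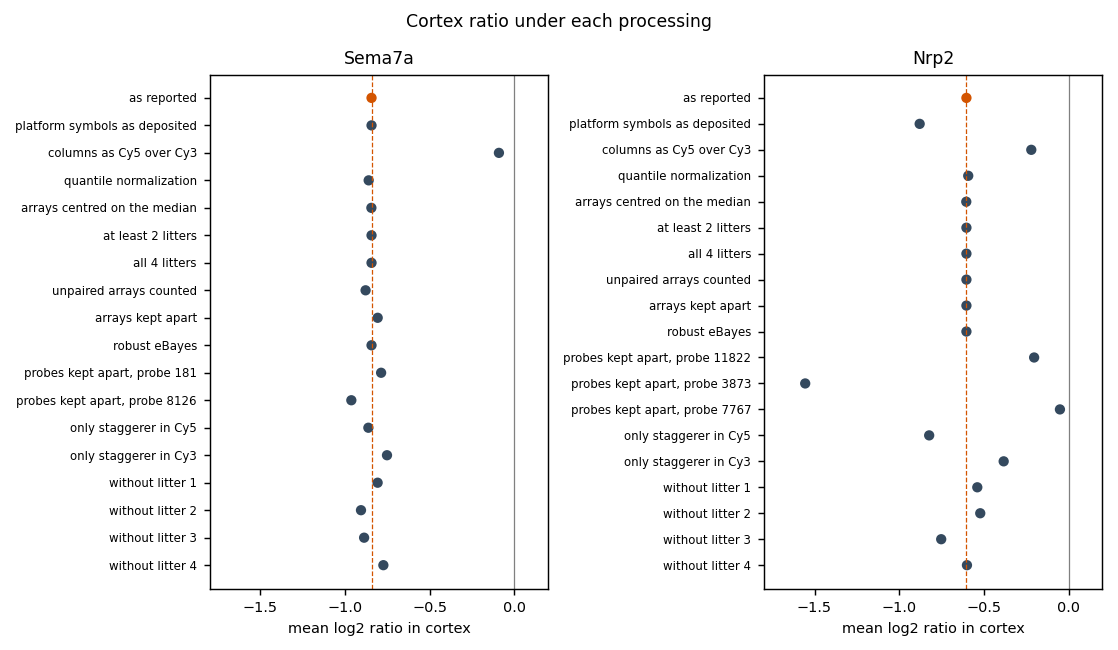
Mean log2 ratio in cortex of Sema7a (left) and Nrp2 (right) under each way of processing, with the reported value in orange. All Sema7a values are below 0, and the reading as Cy5 over Cy3 moves it closest to 0, at -0.091. Nrp2 runs from -1.56 for probe 3873 to -0.051 for probe 7767.

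Other genes of semaphorin signalling, from lists chosen with earlier results of these data known, showed 0 calls in either tissue by limma. Over all features 0.311% passed in VB and 0.0605% in cortex. Of the 13 other semaphorins 12 had a probe. In VB 10 were tested, 4 positive and 6 negative with 2 at an unadjusted p under 0.05 (10.2% of all features), and their median was -0.054. Sema4c, a transmembrane ligand of plexin B2, read 0.16, 0.30, 0.27 and 0.34 over the VB litters (mean 0.27 ± 0.076, n = 4; limma adjusted p = 0.153). Sema4b was negative in all 4 VB litters (-0.26 ± 0.17; limma adjusted p = 0.268). In cortex 8 were tested, 4 positive and 4 negative with 1 at an unadjusted p under 0.05 (7.9% of all features) and a median of 0.011. Sema5b, the closest relative of Sema5a, was positive in all 4 cortex litters at 0.99, 0.37, 0.87 and 0.21 (mean 0.61 ± 0.38; limma adjusted p = 0.170). Sema3e, a ligand of plexin D1, averaged 0.22 ± 0.19 there (n = 3; limma adjusted p = 0.744).

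Of 8 other plexins 7 were tested in VB, 1 positive and 6 negative with a median of -0.078 and 2 at an unadjusted p under 0.05 (10.2% of all features). Plxna1 and Plxna2, plexins that pair with neuropilins, averaged -0.21 ± 0.098 and -0.18 ± 0.14 there (n = 4 each; limma adjusted p = 0.338 and 0.453). Plxna1 was 0.12 in Cy5 and -0.42 in Cy3, so its VB sign changed with the dye assignment. In cortex 6 plexins were tested, 3 positive and 3 negative with a median of -0.0067 and 0 at an unadjusted p under 0.05 (7.9% of all features). Plxna1 averaged 0.22 ± 0.12 and Plxnb3 0.10 ± 0.14 in cortex (n = 4 each; limma adjusted p = 0.660 and 0.888).

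Among 15 further receptors and co-receptors, 11 were tested in VB (6 positive, 5 negative, median 0.045) and 12 in cortex (8 positive, 4 negative, median 0.037). Of these 1 and 2 had an unadjusted p under 0.05, against 10.2% and 7.9% of all features. Cd72, a receptor of Sema4d on immune cells, averaged 0.16 ± 0.13 (n = 4) and Kdr, a vascular receptor, -0.096 ± 0.028 (n = 3) in VB (limma adjusted p = 0.477 and 0.714). Met, a receptor tyrosine kinase that associates with B-type plexins, was positive in all 4 cortex litters at 0.38 ± 0.074 (limma adjusted p = 0.267). Its mean was 0.76 in Cy3 and 0.0093 in Cy5. Nrcam, an adhesion molecule that joins neuropilin-2 complexes, averaged 0.27 ± 0.13 in cortex (n = 4; limma adjusted p = 0.548).

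Of 30 mediators of semaphorin signals, 19 were tested in VB (10 positive, 9 negative, median 0.0026) and 24 in cortex (13 positive, 11 negative, median 0.023). Of these 2 and 3 had an unadjusted p under 0.05, near the 10.2% and 7.9% of all features. Gsk3b, a kinase that phosphorylates collapsin response mediator proteins, averaged 0.45 ± 0.28 in VB (n = 4; limma adjusted p = 0.111), with dye means of 0.0029 in Cy5 and 0.88 in Cy3. Fes, a tyrosine kinase, averaged -0.18 ± 0.083 there (n = 3; limma adjusted p = 0.481). In cortex Crmp1, a collapsin response mediator protein, averaged 0.58 ± 0.80 (n = 4; limma adjusted p = 0.531), with litter 3 alone at 1.77. Fgf13 averaged 0.43 ± 0.41 there (n = 4; limma adjusted p = 0.430).

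Markers of cell types were read beside the ratios of Sema7a and Nrp2. Of 9 astrocyte markers tested in cortex 2 were positive and 7 negative, with a median of -0.16, and the mean of the 7 with complete values was negative in every litter, from -0.61 to -0.057. In cortex 1 of them passed by limma, Gja1, the gene of a connexin that couples astrocytes, at -0.93 ± 0.30 (n = 4; limma adjusted p = 0.0174), against 0.0605% of all features. In VB 8 astrocyte markers were split 4 positive and 4 negative, with a median of 0.0049. Gja1 was again the 1 that passed, at -0.57 ± 0.11 (n = 4; limma adjusted p = 0.00868), against 0.311% of all features.

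Of 7 layer 4 markers tested in cortex 3 were positive and 4 negative, with a median of -0.28. By limma 0 passed, while 5 of the 7 had an unadjusted p under 0.05, against 7.9% of all features. They ran from Kcnh5 at -0.65 ± 0.39 (limma adjusted p = 0.159) to Lmo4 at 0.63 ± 0.44 (limma adjusted p = 0.191; n = 4 each), and the litter means of the list from -0.25 to -0.0064. Of 6 thalamus markers tested in VB 3 were positive and 3 negative, from -0.41 to 0.26, and 4 had an unadjusted p under 0.05, against 10.2% of all features. Of these 1 passed, Calb2, encoding calretinin, at -0.41 ± 0.091 (n = 4; limma adjusted p = 0.0350). By limma 0 of the oligodendrocyte, vascular, microglia, deep layer and GABAergic markers passed in either tissue, with 0 to 1 of each list at an unadjusted p under 0.05 in VB and 0 to 2 in cortex. The part of any list in the ratios above was not tested.

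RORα binds DNA at a ROR response element, an AT-rich stretch before the half-site AGGTCA, so the promoters of the genes were searched for both. The RefSeq table of promoters, on build GRCm38.p6, covers 250 bases before to 50 after each start and holds 10 promoters of 8 of the genes. Sema3f and Sema6a had no entry. The upstream 250 bases of Sema7a are shown as the promoter of the gene with the lowest cortex ratio, and the windows that hold AGGTCA as the only matches to the half-site. Capitals mark AGGTCA, and each window is printed 5′ to 3′ on the strand that reads AGGTCA.
Sema7a, chr9:57939862-57940111, plus strand: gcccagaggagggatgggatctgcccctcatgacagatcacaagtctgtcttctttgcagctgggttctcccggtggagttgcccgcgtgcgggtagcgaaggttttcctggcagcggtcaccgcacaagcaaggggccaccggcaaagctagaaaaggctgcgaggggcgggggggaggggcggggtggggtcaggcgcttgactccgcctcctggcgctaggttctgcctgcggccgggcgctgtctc
Nrp1, chr8:128358823-128358844, minus strand: tccgcgggaagaAGGTCActag
Sema4d, chr13:51756721-51756750, plus strand: tgccccaccctgAGGTCAaggcctctgaat
Sema5a, chr15:32244662-32244691, plus strand: aggggcctgggaAGGTCAggggtgggtggg

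The Sema7a stretch is 66.4% G or C, against a median of 52.4% over 32851 promoters, of which 85.2% were lower. The full ROR response element, searched on both strands with a pattern ending in AGGTCA or GGGTCA, was found in 0 of the 8 genes' promoters and in 0.384% of all. The half-site AGGTCA, also searched on both strands, was found for 3 genes (3 of 10 promoters) and in 16.3% of all promoters. Relative to the start it lies at position -55 in Sema4d, -139 in Sema5a and -246 in Nrp1. Neither Sema7a nor Nrp2, the genes with the lowest cortex ratios, held AGGTCA in these windows. GGGTCA alone was not searched for, and the printed Sema7a stretch contains it. The matches are a description of letters in these windows.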

How the data were processed

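RNA of VB and somatosensory cortex was compared on 16 two-colour arrays. The values are log2 ratios as deposited by the authors, taken as base 2 from their range. How they were normalized, their log base and their numerator, and how spots were scanned and filtered, is not given in the sources used here, so depth and signal over background are unknown and the number of arrays limits the precision. Per the labels, each litter has swapped arrays. Nothing was filtered on low signal.

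Probes were named through accession (15682), symbol (2966) or synonym (1694), 27 kept their deposited symbol and 3738 had none. Litter values are means of the swapped arrays where both gave a value, probes of a gene were averaged, and features with at least 3 of 4 litters were tested. The probes behind a gene value can thus differ between its litters. limma 3.58.1 in R 4.3.3 (lmFit and eBayes, two-sided) tested a mean of 0 in each tissue, and VB minus cortex, with Benjamini-Hochberg adjustment over all features and a threshold of 0.05. p-values and intervals rest on the spread between litters after eBayes moved the spread of each feature toward a value estimated from all features. They can thus be wider or narrower than the litters of a gene alone would give. Sema7a in VB had an SD of 0.017 and an interval of -0.22 to 0.058. Nrp2 probe 3873 in cortex had an SD of 0.53 and an interval of -1.91 to -1.20. On simulated data with known shifts, 71% of log2 shifts of 0.5 and 97% of 1.0 were recovered in VB (16066 features), and 12% and 88% in cortex (16521 features). The simulated noise was independent between arrays, with no dye offset and no deviation shared by the arrays of a litter. Recovery in the real data may therefore be lower.

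The labels give litter numbers 1 to 4 in both tissues, which would pair the VB and cortex samples if an equal number means the same litter. The main comparison of VB and cortex treated them as unpaired. Deviations of the same litter number from the tissue means had correlations of -0.0016, -0.015, -0.011 and 0.029 between the tissues over 4248 features. Alternatives covered the reading of the columns, quantile and median scaling, the litter minimum, unpaired arrays, arrays kept apart, robust eBayes, probes kept apart, single dye assignments, each litter left out and litter as a replicate block. The platform symbols as deposited, and probes kept apart together with each other alternative, were added after the data were seen.

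Named genes were all 10 members, Rora, the 5 genes most like Sema7a by cosine, and of each list of other semaphorin genes every called gene and otherwise the 2 with the smallest unadjusted p in each tissue. Of the cell type markers, Gja1 and Calb2 are named as called genes and Kcnh5 and Lmo4 were chosen after their values were seen. The members and lists were chosen with earlier results of these data known.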

Additional observations from a re-analysis of the deposited data

Results flagged for a closer look

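Nrp2 had positive ratios in all VB litters and negative ratios in all cortex litters, as deposited. The VB litter values rest on different probes, litter 2 on probe 7767 alone and litter 4 on probe 3873 alone. The VB dye means had opposite signs, -0.22 with staggerer RNA in Cy5 and 0.23 with it in Cy3. With arrays kept apart the VB mean was 0.0037. The difference of 0.67 (VB minus cortex) did not pass (limma adjusted p = 0.153), and read as Cy5 over Cy3 it was -0.074. For Nrp2 probe 3873 alone the difference was 1.77 and passed (limma adjusted p = 0.00831), and read as Cy5 over Cy3 it was 0.12 (limma adjusted p = 0.758). Tissue and labelling method cannot be told apart.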

How the results depend on the processing

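The number of features called in VB was 50, and 2784 with columns read as Cy5 over Cy3, 19 with quantile normalization, 7 with unpaired arrays, 0 with arrays kept apart (limma; 1640 at an unadjusted p under 0.05), 1167 with staggerer RNA only in Cy5, 1678 only in Cy3, and 11 to 95 leaving out 1 litter. Of the 50 calls 37 were positive, against 10 of 19 with quantile normalization. In cortex 10 were called (3 positive), and 253 as Cy5 over Cy3, 18 with at least 2 litters, 2 with unpaired arrays, 3 with arrays kept apart, 16 with probes kept apart, 95 only in Cy5, 152 only in Cy3, 7 (1 positive) with quantile normalization, and 0 to 98 leaving out 1 litter. Without litter 1 or litter 2 limma called 0 in cortex (713 and 794 at an unadjusted p under 0.05). For the tissue difference 12 were called (10 positive), 14 with quantile normalization (10 positive), and 455 as Cy5 over Cy3, 5 with all 4 litters, 0 with unpaired arrays (limma; 1969 at an unadjusted p under 0.05), 25 only in Cy5, 453 only in Cy3, and 0 to 1 leaving out 1 litter (0 without litter 1, limma, with 377 at an unadjusted p under 0.05). With litter as a replicate block 16 were called, Nrp2 had a limma adjusted p of 0.148 and its probe 3873 one of 0.0132, and the block changed no call on a member. Read as Cy5 over Cy3, the sign turned for Sema3f in cortex (-0.68), Nrp2 in VB (-0.29), Nrp2 probe 3873 in VB (-0.47) and Rora in VB (0.42), and these 4 then passed by limma. Signs also turned without a call, among others for Sema7a in VB (0.14), Sema3f in VB (-0.17), Nrp1 in cortex (-0.27) and the Nrp2 tissue difference (-0.074). The cause of the other shifts was not tested. Over 22 gene results and 315 recomputed values, 271 kept within the spread between litters and their side of the threshold. A further 38 moved by more, 4 passed newly and 2 turned sign with a call. None of the 22 was called as reported, so the count of 0 lost calls was fixed beforehand. Some alternatives, such as robust eBayes, leave a mean unchanged by construction. Sema7a in cortex was negative in all 17 alternatives, from -0.96 to -0.091. These rework the same arrays whose ratio chose the gene, so they are a description and not separate support. Nrp2 probe 3873 in cortex lost its call without litter 1, without litter 2 and with staggerer RNA only in Cy3. Its tissue difference lost its call without litter 2 and as Cy5 over Cy3. No other litter could be left out for that difference, since too few VB litters would remain.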
